A study of Mus musculus with 4 samples.

Results

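The claudins and tight junction genes are 9 genes chosen by symbol, namely Cldn1, Cldn3, Cldn4, Cldn7, Cldn8, Ocln, Tjp1, F11r and Cgn. They are 9 of the 54446 genes listed, and all 9 are among the 17787 genes with a level above 0 in every library. RNA was sequenced from mammary gland cells of wild type C57BL/6 mice, sorted by FACS, a method that separates single cells by fluorescence, and grown in 3D in growth factor-reduced Matrigel under a medium with EGF and an insulin supplement. The cells carry the label basal, for the outer cells of the mammary duct, or luminal, for the inner cells that line it. The medium held either DMSO, the solvent control, or 100 μM baicalin, a plant flavonoid glucuronide. This gives 4 libraries, 1 for each label and treatment, with 19356072 to 20648761 fragments counted in each. The methods of the study take mammary glands from female mice of 6 to 9 weeks, virgin or at other stages, and sort cells with antibodies to CD24 and CD29 and to the lineage markers CD31, CD45 and TER119. How many mice went into a library and on which day of culture it was made are not given in the sources used here.

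Tight junctions seal neighbouring epithelial cells at the border between the apical and lateral membrane. Claudins are the membrane proteins that build the strands and set which ions pass between cells, occludin and JAM-A (encoded by F11r) span the same membrane, and the plaque proteins ZO-1 (encoded by Tjp1) and cingulin (encoded by Cgn) tie the strands to actin and myosin. In the mammary gland they belong to the luminal layer, where they keep milk apart from the tissue fluid.

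The labels went against the basal markers and the luminal keratins, while the other luminal markers were mixed. All 10 basal markers were higher in the library labelled luminal than in the library labelled basal, with DMSO and with baicalin. Krt5, a basal keratin, was at 128 FPKM in the basal DMSO library, 3.01 in the basal baicalin library, 2015 in the luminal DMSO library and 2415 in the luminal baicalin library. Krt8, a luminal keratin, was at 1573, 754, 383 and 324 FPKM in the same order, and Krt18, its partner, at 1408, 948, 298 and 197. Of the 10 luminal markers, 6 were lower and 4 higher in the library labelled luminal with DMSO, and 8 lower and 2 higher with baicalin. Those that went with the label included Pgr, the progesterone receptor gene, at 1.08, 0.912, 4.81 and 2.09 FPKM, and Gata3, picked after its values were seen, at 18.0, 24.8, 37.2 and 31.9 FPKM. The libraries are therefore named by their labels only, and no direction given here is a statement on basal or luminal cells. FPKM counts fragments relative to exon length and to library depth, so levels of different genes can be set side by side. The length is that of all annotated exons of a gene together, used or not, which limits how finely levels of different genes compare. With 1 library a condition there is no replicate, no test between conditions and no p-value, and each interval in the text is a 95% interval for counting error only. In such bulk RNA, fewer cells of a type and less RNA per cell cannot be told apart.

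Cldn4 and Cldn3, both barrier-forming claudins and known receptors of a Clostridium enterotoxin, were the most abundant claudins in all 4 libraries. Cldn4 was at 273 FPKM in the basal DMSO library, 476 in the basal baicalin library, 45.9 in the luminal DMSO library and 136 in the luminal baicalin library. It spanned a 10.4-fold range, the widest of the 9 genes, and in the basal baicalin library 99.7% of the genes kept were lower. Cldn3 was at 144, 192, 30.9 and 45.1 FPKM in the same order, so both genes were highest in the basal baicalin library and lowest in the luminal DMSO library. Cldn4 is at chr5:134945119-134946934 on the minus strand and Cldn3 at chr5:134986214-134987472 on the plus strand of GRCm38, each with a single exon. Their starts lie 39.3 kb apart, they point away from each other, and no gene of the table lies between them. On the far side of Cldn4, Mettl27 was at 2.18 to 4.01 FPKM, and Abhd11, the nearest gene beyond Cldn3 above 5 FPKM, was at 13.1, 17.2, 12.8 and 12.9 FPKM in the order above. These neighbours were picked by position, outside the rule for named genes. The last 40 bases of the Cldn3 exon are shared with the antisense gene Wbscr25, which was at 0.0732 to 0.618 FPKM.

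The windows around the starts of Cldn4 and Cldn3 are shown since these neighbouring genes moved in the same direction in every comparison. Each window runs 5′ to 3′ from 250 bases before to 50 bases after the RefSeq start, on GRCm38.p6, and matches to 7 short motifs on either strand are in capitals. The motifs were a Grainyhead-like site (AACCNGTT), a Snail E-box (CAGGTG), an antioxidant response element (TGACNNNGC), an AP-1 site (TGANTCA), a GC box (GGGCGG), an ETS site (CCGGAAG) and a TATA box (TATAAA). The table of starts held 10 windows for 8 of the 9 genes and 32851 windows in all. Cldn4 is read from chr5:134946885-134947184 on the minus strand and Cldn3 from chr5:134985964-134986263 on the plus strand.
Cldn4: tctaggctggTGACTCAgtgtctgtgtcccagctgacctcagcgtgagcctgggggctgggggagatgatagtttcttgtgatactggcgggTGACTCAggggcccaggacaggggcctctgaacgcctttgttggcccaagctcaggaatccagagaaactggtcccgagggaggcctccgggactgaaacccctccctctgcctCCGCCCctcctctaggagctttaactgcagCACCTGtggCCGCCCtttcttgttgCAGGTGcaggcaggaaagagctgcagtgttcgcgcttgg
Cldn3: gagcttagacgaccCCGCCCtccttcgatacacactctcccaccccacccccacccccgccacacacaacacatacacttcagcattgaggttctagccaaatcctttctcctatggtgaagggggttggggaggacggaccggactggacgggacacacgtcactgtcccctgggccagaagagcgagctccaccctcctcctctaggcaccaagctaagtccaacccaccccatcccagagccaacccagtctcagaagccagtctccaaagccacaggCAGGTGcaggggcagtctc
The Cldn4 window held AP-1 sites at -240 to -234 and -158 to -152 and Snail E-boxes at -14 to -9 and 11 to 16, counted with the start base as 0. The second GC box of that window ends at the start base. In the Cldn3 window there was a single Snail E-box, at 31 to 36, and a GC box at -236 to -231. Of all windows, 7.81% held an AP-1 site, 20.2% a Snail E-box and 35.7% a GC box. A match of letters is a description and not a bound site.

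Cldn1, whose product is needed for the epidermal water barrier, had another pattern. It was at 48.2 FPKM in the basal DMSO library, 47.8 in the basal baicalin library, 9.63 in the luminal DMSO library and 32.1 in the luminal baicalin library. A single library was low, that labelled luminal with DMSO, and the other 3 stood within 32.1 to 48.2 FPKM. The gene is at chr16:26356642-26371841 on the minus strand, and its window at chr16:26371790-26372089 is shown since its pattern differs from that of Cldn4.
Cldn1: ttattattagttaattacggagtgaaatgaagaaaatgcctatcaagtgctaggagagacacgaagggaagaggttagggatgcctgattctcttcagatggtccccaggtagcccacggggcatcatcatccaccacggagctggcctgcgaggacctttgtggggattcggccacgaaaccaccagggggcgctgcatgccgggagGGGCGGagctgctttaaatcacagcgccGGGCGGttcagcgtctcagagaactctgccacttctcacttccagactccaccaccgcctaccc
The only matches in it were GC boxes at -42 to -37 and -14 to -9.

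Cldn7, a claudin found along the lateral membrane as well as at the junction, was the claudin of high level that was lower with baicalin under both labels. Its levels were 91.3 FPKM in the basal DMSO library, 78.4 in the basal baicalin library, 26.5 in the luminal DMSO library and 18.5 in the luminal baicalin library. The libraries labelled basal were both high and the libraries labelled luminal both low. The gene is at chr11:69964779-69967885 on the plus strand, and RefSeq gives it a pair of starts, of which the window at chr11:69964529-69964828, at the start that the annotation uses, is shown for contrast with Cldn4.
Cldn7: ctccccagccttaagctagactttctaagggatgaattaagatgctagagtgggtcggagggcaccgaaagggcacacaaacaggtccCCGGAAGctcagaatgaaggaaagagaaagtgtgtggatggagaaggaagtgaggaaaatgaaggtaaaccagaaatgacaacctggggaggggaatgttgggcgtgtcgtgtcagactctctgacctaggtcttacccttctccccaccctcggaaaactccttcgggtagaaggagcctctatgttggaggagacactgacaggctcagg
This window held an ETS site at -162 to -156 and none of the other 6 motifs, and the other Cldn7 window held an ETS site as well, at -66 to -60. An ETS site was in 8.86% of all windows and in no window of the other genes of the set.

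Cldn8, known for limiting cation passage in the distal nephron and colon, was the scarce member. It was at 1.65 FPKM in the basal DMSO library (77 fragments), 1.19 in the basal baicalin library (57 fragments), 4.76 in the luminal DMSO library (217 fragments) and 1.40 in the luminal baicalin library (68 fragments). The luminal DMSO library was the high one, where Cldn4, Cldn3, Cldn1, Ocln, Tjp1, F11r and Cgn had their lowest level. The gene is a single exon at chr16:88560828-88563183 on the minus strand.

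Of the other membrane proteins, F11r was the more abundant and the more even. F11r (chr1:171437535-171464603, plus strand) was at 98.6, 118, 78.1 and 99.2 FPKM in the basal DMSO, basal baicalin, luminal DMSO and luminal baicalin libraries, a range of 1.51-fold and the narrowest of the set. Ocln (chr13:100496507-100552718, minus strand), the gene of occludin, was at 27.3, 26.1, 9.48 and 11.02 FPKM in the same order. Ocln was high in both libraries labelled basal and low in both labelled luminal, and F11r was lowest in the luminal DMSO library.

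The plaque genes also parted by label, Cgn by more than Tjp1. Tjp1 (chr7:65296165-65527781, minus strand) was at 44.8, 41.5, 25.6 and 26.6 FPKM in the order above, and Cgn (chr3:94760069-94786492, minus strand) at 42.2, 31.1, 7.88 and 9.52 FPKM. Both were high in the libraries labelled basal, and the Cgn level per Tjp1 level went from 0.941 in the basal DMSO library to 0.749, 0.308 and 0.357 in the other 3. Part of the Cgn transcript is 98.7% identical over 1716 bases to the annotated gene BC021767, which was at 0.0864 to 0.660 FPKM, so reads could be split between them. The Cgn window is shown since it alone of the 10 held the Grainyhead-like sequence, at -29 to -22, which was in 2.09% of all windows. It is read from chr3:94786433-94786732 on the minus strand.
Cgn: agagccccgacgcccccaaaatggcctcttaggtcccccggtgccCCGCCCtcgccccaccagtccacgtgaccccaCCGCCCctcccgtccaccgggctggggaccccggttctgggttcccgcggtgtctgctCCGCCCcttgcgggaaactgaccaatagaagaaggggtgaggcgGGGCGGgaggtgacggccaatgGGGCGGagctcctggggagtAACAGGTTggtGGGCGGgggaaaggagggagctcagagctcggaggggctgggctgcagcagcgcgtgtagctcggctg
It also held 6 GC boxes. Over the 10 windows, 9 held a GC box, 6 a Snail E-box, 2 an AP-1 site, and none an antioxidant response element or a TATA box, which were in 12.4% and 13.6% of all windows. The 10 windows were 52.0% to 70.3% G or C, against a median of 52.7% over all windows.

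**Figure D1:**
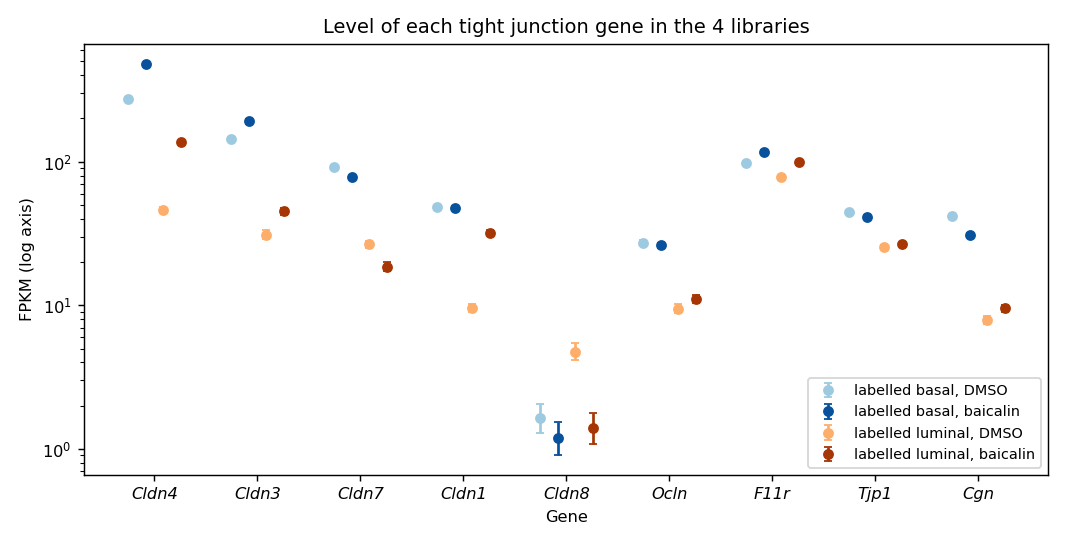
FPKM of the 9 genes on a log axis, 1 point for each of the 4 libraries, with bars for the 95% counting interval (wider than the point only for low counts). For 8 genes the point of the luminal DMSO library lies below both points of the libraries labelled basal, and for Cldn8 it lies above all others at 4.76 FPKM.

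The order of the levels was alike in the 2 libraries labelled basal, with Cldn4 first, then Cldn3, F11r, Cldn7, Cldn1, Tjp1, Cgn, Ocln and Cldn8, and no counting intervals of neighbours overlapped. In the luminal DMSO library F11r came first at 78.1 FPKM, ahead of Cldn4 at 45.9 and Cldn3 at 30.9. There the intervals of Cldn7 and Tjp1 overlapped, as did those of Cldn1 and Ocln, and Cgn and Cldn8 followed. In the luminal baicalin library Cldn4 was first again, ahead of F11r, Cldn3, Cldn1, Tjp1, Cldn7, Ocln, Cgn and Cldn8, with no overlap between neighbours. The Cldn4 level per F11r level was 2.77, 4.04, 0.587 and 1.38 in the basal DMSO, basal baicalin, luminal DMSO and luminal baicalin libraries. For Cldn1 per Tjp1 it was 1.08, 1.15, 0.377 and 1.20, so the luminal DMSO library alone stood low.

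Baicalin was first compared with DMSO in the libraries labelled basal, which asks how the treatment moves these genes under that label. Cldn4 was 1.74-fold as high with baicalin (1.70 to 1.79), Cldn3 1.33-fold (1.28 to 1.39) and F11r 1.19-fold (1.15 to 1.24). Cgn was 1.36-fold lower and Cldn7 1.17-fold lower, and Tjp1 was 1.08-fold lower, with ratios of 0.737 (0.707 to 0.769), 0.858 (0.817 to 0.901) and 0.926 (0.895 to 0.958). The counting interval reached 1 for the ratios of Cldn1 at 0.991 (0.951 to 1.03), Ocln at 0.959 (0.904 to 1.02) and Cldn8 at 0.725 (0.505 to 1.03). On the log2(FPKM + 1) scale, which understates the change of low genes, 3 of the 9 were higher and 6 lower. None was higher by more than 1, where 2.15% of all genes kept were, and none was lower by more than 1, where 3.33% were. The median difference over the 9 genes was -0.06, and that over all genes kept was 0.01.

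In the libraries labelled luminal, Cldn1, Cldn4 and Cldn8 had the largest differences with baicalin. Cldn1 was 3.33-fold as high (3.09 to 3.59) and Cldn4 2.98-fold (2.81 to 3.15), which are log2 differences of 1.64 and 1.55. Cldn8 was 3.40-fold lower, a ratio of 0.294 (0.220 to 0.387) and a log2 difference of -1.26. These are 2 of 9 genes higher by more than 1, against 2.37% of all genes kept, and 1 of 9 lower by more than 1, against 1.59%. Cldn3 was 1.46-fold as high (1.33 to 1.60), F11r 1.27-fold (1.22 to 1.32), Cgn 1.21-fold (1.11 to 1.32) and Ocln 1.16-fold (1.06 to 1.28). Cldn7 was 1.43-fold lower, with a ratio of 0.699 (0.635 to 0.770). The Tjp1 ratio of 1.04 had an interval that reached 1 (0.997 to 1.09). The median difference was 0.24, with 7 of the 9 genes higher and 2 lower, where the median over all genes kept was -0.02.

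Markers moved beside these differences. Of the 10 luminal markers, 9 were lower with baicalin under the basal label and 10 under the luminal label, and their summed level, mostly Krt8 and Krt18, went from 3256 to 1886 FPKM and from 859 to 593 FPKM. The 10 basal markers went from a summed 1761 to 479 FPKM under the basal label and from 5404 to 7199 under the luminal label. Under the luminal label 5 of them were higher and 5 lower, with Krt14 going from 2308 to 3132 FPKM and Acta2, smooth muscle actin, from 555 to 417 FPKM. The 6 immune markers went from a summed 16.4 to 53.6 FPKM and from 5.41 to 16.4 FPKM. Of these, picked after their values were seen, Cd68 went from 7.49 to 51.5 FPKM under the basal label and from 4.44 to 13.7 under the luminal label, and Lyz2 from 8.84 to 2.17 and from 0.903 to 2.61. Fibroblast markers summed to 2.60 to 10.4 FPKM, endothelial markers to 0.901 to 3.57 FPKM and adipocyte markers to 0.195 to 16.2 FPKM over the 4 libraries, 6 genes each. The part of these cell types in the differences of the tight junction genes was not tested.

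**Figure D2:**
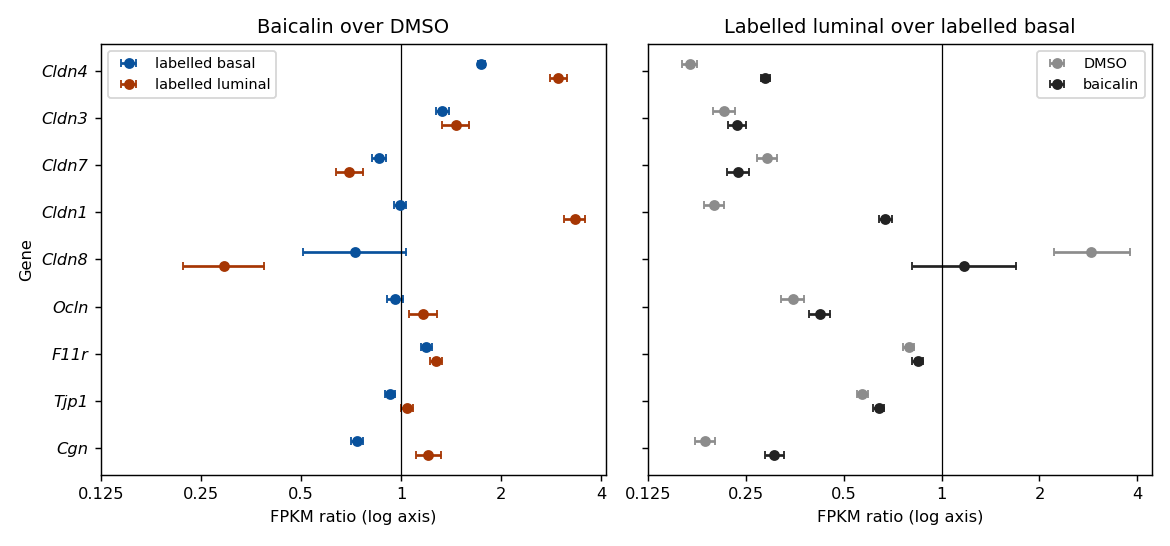
FPKM ratio of each gene on a log axis, baicalin over DMSO on the left and labelled luminal over labelled basal on the right, with 95% counting intervals. Cldn1 and Cldn4 reach 3.33 and 2.98 with baicalin under the luminal label, and every gene but Cldn8 lies below 1 on the right.

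The ratio of both baicalin ratios, luminal over basal, shows how far the treatment differences stood apart between the labels. It was 3.36 for Cldn1 (3.09 to 3.66), 1.71 for Cldn4 (1.61 to 1.81), 1.64 for Cgn (1.49 to 1.80), 1.21 for Ocln (1.08 to 1.35), 1.12 for Tjp1 (1.06 to 1.19) and 1.07 for F11r (1.01 to 1.13). For Cldn3 it was 1.10 with an interval that reached 1 (0.990 to 1.21). It was below 1 for Cldn7, at 0.815 (0.733 to 0.907), and for Cldn8, at 0.405 (0.262 to 0.628). Cldn4, Cldn3 and F11r were higher with baicalin under both labels and Cldn7 and Cldn8 lower under both. Cldn1, Ocln, Tjp1 and Cgn were lower with baicalin under the basal label and higher under the luminal label, and of these 4 only Cgn had counting intervals away from 1 under both labels. No test of a difference between conditions is possible with 1 library each.

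The comparison of the labels asks how the genes differ between the sorted populations as named. With DMSO, 8 of the 9 genes were lower in the library labelled luminal. Cldn4 was 5.95-fold lower, Cgn 5.35-fold, Cldn1 5.01-fold, Cldn3 4.66-fold, Cldn7 3.44-fold and Ocln 2.87-fold, and for these 6 the log2 difference was below -1, where 3.86% of all genes kept were. Tjp1 was 1.75-fold lower and F11r 1.26-fold lower. Cldn8 was 2.89-fold as high (2.22 to 3.80), which is 1 of 9 genes higher by more than 1, against 4.71% of all genes kept. The median log2 difference was -1.75 over the 9 genes and 0.01 over all genes kept.

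With baicalin the labels stood closer for all of the genes but Cldn7, though for Cldn3 only within counting error. The Cldn3 interval of the ratio of ratios reached 1 (0.990 to 1.21). Cldn3 was 4.25-fold lower in the library labelled luminal, Cldn7 4.22-fold, Cldn4 3.48-fold, Cgn 3.27-fold and Ocln 2.37-fold, and for these 5 the log2 difference was below -1, against 2.99% of all genes kept. None of the 9 was higher by more than 1, against 5.24%. Cldn1 was 1.49-fold lower, with a log2 difference of -0.56 in place of -2.21 with DMSO. The Cldn8 ratio of 1.17 had an interval that reached 1 (0.812 to 1.70). The median was -1.17, and over all genes kept it was -0.03. In both label comparisons the lower levels of all but Cldn8 stood beside lower Krt8 and Krt18 and higher levels of all 10 basal markers, and beside luminal markers of both directions, 4 of 10 higher with DMSO and 2 of 10 with baicalin. The part of the cell types in these values was not tested. Each library stands in 2 of the 4 comparisons, so the comparisons share their values.

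The 5 claudins of the set made up most of the claudin mRNA. Over all 33 claudin genes of the table, the summed level was 630 FPKM in the basal DMSO library, 857 in the basal baicalin library, 138 in the luminal DMSO library and 258 in the luminal baicalin library. The 5 took 88.5%, 92.7%, 85.2% and 90.6% of it. Cldn4 alone took 43.3%, 55.5%, 33.2% and 52.9%, so its share was higher with baicalin under both labels. Cldn7 took 14.5%, 9.14%, 19.2% and 7.19%, the reverse order between treatments, and the Cldn4 level per Cldn7 level was 2.99, 6.07, 1.73 and 7.36. Cldn3 took a share of 17.5% to 22.8%. The share of Cldn1 was 7.66%, 5.58%, 6.97% and 12.4%, highest in the luminal baicalin library. Another 12 claudin genes were listed at 0 in all 4 libraries, among them Cldn14, Cldn16 and Cldn19, known from the kidney and inner ear, and 9 or 10 genes reached 1 FPKM in a library.

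**Figure D3:**
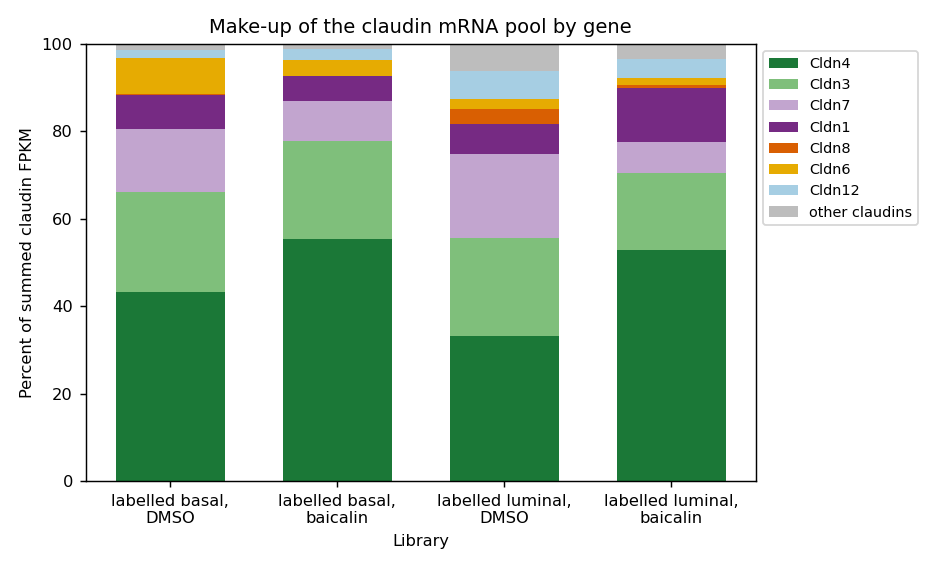
Percent of the summed claudin FPKM taken by each claudin gene, 1 bar per library. The Cldn4 segment is the largest in every bar and goes from 33.2% in the luminal DMSO library to 55.5% in the basal baicalin library.

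Outside the set, 11 other claudin genes were kept of 28 found. Under the luminal label 6 were higher and 5 lower with DMSO, and 5 higher and 6 lower with baicalin. Over all genes kept, 47.5% and 54.8% were lower. Apart from Cldnd1, those higher with DMSO were at 2.72 FPKM or less in the DMSO libraries. Cldn6, Cldn12 and Cldn23 were lower with both treatments. Cldn6, a claudin of embryonic epithelia, was at 51.6, 30.4, 3.09 and 4.50 FPKM in the basal DMSO, basal baicalin, luminal DMSO and luminal baicalin libraries. Its level with DMSO was 16.7-fold lower under the luminal label, a wider gap than for any of the 9 genes. Cldn12 was at 12.5, 22.3, 8.66 and 10.9 FPKM and Cldn23 at 2.92, 5.10, 0.923 and 3.14 FPKM. Cldn6, Cldn12 and Cldn23 each had their lowest level in the luminal DMSO library, as Cldn4 had. Cldn23 was 3.41-fold as high with baicalin under the luminal label (2.30 to 5.17), from 33 and 120 fragments. Cldnd1, a claudin domain gene, was at 18.5, 21.9, 27.7 and 39.2 FPKM and higher under the luminal label. The lists of other genes were chosen by hand, and the genes named from them are those with the largest differences.

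Other membrane proteins of the junction were mostly lower under the luminal label, as the set was. Of 11 kept, 9 were lower and 2 higher with either treatment, with medians of -0.52 with DMSO and -0.45 with baicalin. Marveld2, which encodes tricellulin of the tricellular contacts, was at 24.1, 19.2, 11.5 and 10.6 FPKM in the order above. The adhesion protein gene Cxadr was at 63.2, 72.7, 35.6 and 45.0 FPKM, and Crb3 of the Crumbs polarity complex at 14.9, 19.2, 7.99 and 10.2 FPKM. Ildr1, also of the tricellular contacts, was at 13.3, 19.9, 12.1 and 15.6 FPKM. With baicalin, 6 of the 11 were higher and 5 lower under each label. Of all genes kept, 47.5% were lower under the luminal label with DMSO and 54.8% with baicalin, and 50.9% were higher with baicalin under the basal label and 45.6% under the luminal label.

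All 31 other plaque genes found were kept. Under the luminal label 19 of 31 were lower with DMSO and 23 of 31 with baicalin, with medians of -0.38 and -0.37. Cgnl1, which encodes the cingulin relative paracingulin, was at 38.4, 41.9, 15.5 and 14.3 FPKM, high in the libraries labelled basal as Cgn was. Amot, an angiomotin that binds polarity and Hippo pathway proteins, was at 26.5, 30.1, 4.69 and 3.53 FPKM. Pard6g of the PAR6 polarity family went the other way, at 9.05, 6.76, 23.1 and 32.4 FPKM. With baicalin, 22 of 31 were higher under the basal label and 18 of 31 under the luminal label, against the 50.9% and 45.6% of all genes kept. Amotl2 was 1.73-fold and 1.72-fold as high, and Arhgef2, whose product cingulin binds, 1.65-fold and 1.52-fold. Mpdz, a scaffold with many PDZ domains, was 2.31-fold and 1.64-fold lower.

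**Figure D4:**
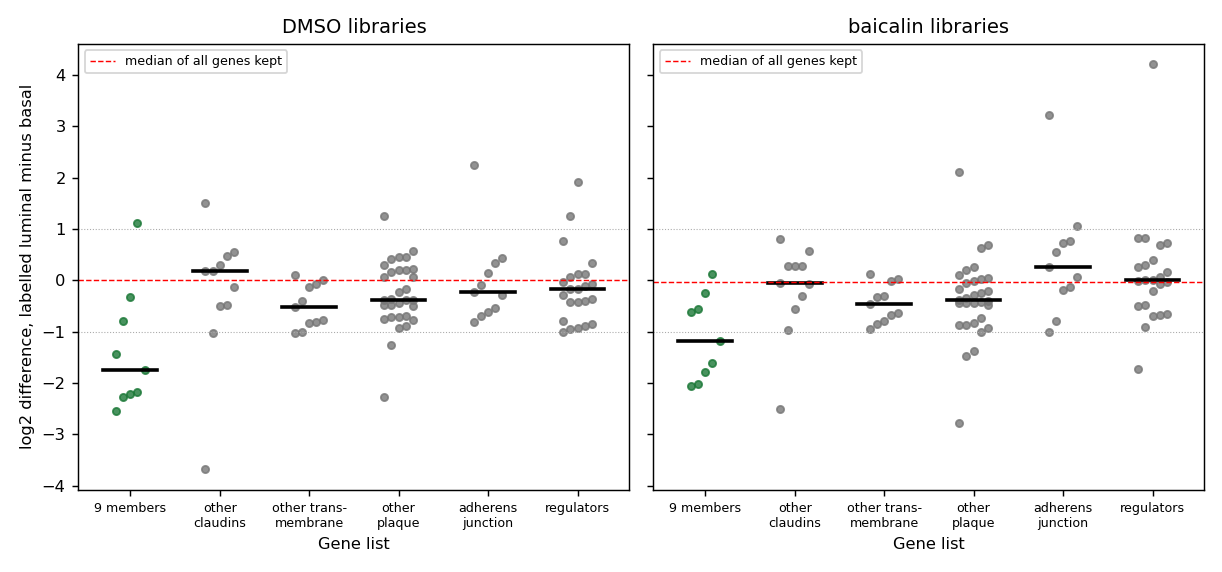
Difference between labels on the log2(FPKM + 1) scale for each gene of the 6 lists, with DMSO on the left and baicalin on the right, a black bar for each list's median and a dashed line for the median of all genes kept. The 9 genes have medians of -1.75 and -1.17, and the medians of the other membrane proteins are -0.52 and -0.45.

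The adherens junction, the neighbouring contact built on cadherins, gave mixed counts between the labels. Of its 11 genes, 7 were lower and 4 higher under the luminal label with DMSO, and 4 lower and 7 higher with baicalin. Over all genes kept, 47.5% and 54.8% were lower. Cdh3, the P-cadherin of basal cells, was at 11.5, 5.79, 58.4 and 62.3 FPKM, opposite to the set, and Nectin2 was at 23.9, 34.6, 13.1 and 16.7 FPKM. With baicalin, 3 of 11 were higher under the basal label and 8 of 11 under the luminal label. The shares over all genes kept were 50.9% and 45.6%. Under the luminal label Jup, the gene of plakoglobin, was 1.45-fold as high.

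Among 26 regulators of the junction, 23 were kept. Snai2, a repressor that binds E-boxes, was at 4.26, 0.415, 19.0 and 25.2 FPKM in the basal DMSO, basal baicalin, luminal DMSO and luminal baicalin libraries. In the basal baicalin library, where Cldn4 and Cldn3 were highest, Snai2 rested on 17 fragments. Grhl3 of the Grainyhead-like family was at 7.82, 9.85, 7.15 and 18.1 FPKM and Klf4, an epithelial transcription factor, at 34.1, 41.0, 19.3 and 54.3 FPKM. They were 2.54-fold and 2.81-fold as high with baicalin under the luminal label. These values stand side by side with those of the claudins, and no link between them was tested.

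**Figure D5:**
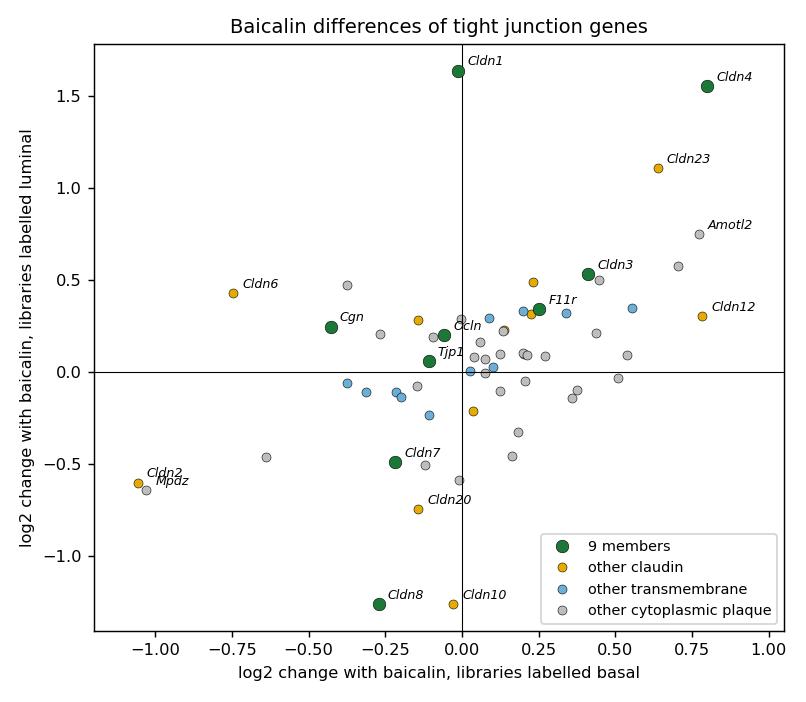
Difference with baicalin on the log2(FPKM + 1) scale in the libraries labelled basal (horizontal axis) and labelled luminal (vertical axis) for the 9 genes and the other claudins, membrane proteins and plaque proteins, 1 point per gene. Cldn4 lies farthest to the right at 0.80 and next to the top at 1.55, and Cldn1 lies at -0.01 and 1.64. The FPKM ratios under the basal label, which carry no pseudocount, were 1.74 for Cldn4, 1.78 for Cldn12 and 1.75 for Cldn23.

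Within the set, Cldn8 and Cldn4 stood farthest from the median pattern. Each gene was centred on its own mean log2(FPKM + 1) over the 4 libraries and compared by Euclidean distance. The distance to the median of the 9 genes was 2.21 for Cldn8, 1.37 for Cldn4 and 0.24 for Ocln, the nearest. Among 9154 genes of at least 5 FPKM in a library, the nearest outside the set were Il10rb at 0.16, Epb41l1 at 0.18, Cenpv at 0.19, Hmga1 at 0.20 and Stk10 at 0.21. Nearest to Cldn4 were Coro6 at 0.16 and G930009F23Rik at 0.17, and nearest to Cldn8 were Acat1 at 0.15 and Cdkn2c at 0.16. With 4 libraries, likeness of pattern is a description of these libraries.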

How the data were processed

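RNA was measured in 4 libraries, 1 per label and treatment, so there are no replicates. Polyadenylated RNA was captured on oligo (dT) beads and made into strand-specific libraries. The authors mapped the reads with HISAT2 to GRCm38 and counted them per gene with featureCounts, and the deposited values are FPKM per gene. The submitters' processing notes also name Bowtie 0.12.2 and mm8, with no role. Whether the counting used the strand is not given in the sources used here. Libraries treated with hormones are not analysed here.

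FPKM multiplied by exon length (GENCODE, GRCm38) fell within 0.1 of a whole fragment for 98.9% to 99.1% of genes of up to 20 fragments, from which library depths and each gene's fragments were recovered. About 0.05 FPKM is 1 fragment on 1 kb of exon. These fragments gave exact Poisson intervals of levels and exact Clopper-Pearson intervals of ratios, and a log-scale interval for the ratio of ratios, all covering counting error only. No count test was run. Genes above 0 FPKM in all 4 libraries were kept, differences are log2((FPKM + 1)/(FPKM + 1)), and the threshold was a difference of 1.

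The members and the lists of other genes and markers were chosen with earlier results of these data known. Named genes were the 9 members, 8 markers, the 3 genes of at least 5 FPKM with the largest difference per other junction list and comparison, and the genes nearest in pattern. Some genes of this rule are not reported here. Alternatives were a pseudocount of 0.1 or none, no filter, at least 10 fragments, TPM, centring on the median ratio, protein-coding genes only and a threshold of 0.5. Near-identical genes had at least 95% identity over 200 bases (BLAST 2.17.0). Promoter windows are from RefSeq. In simulated data with counting error only, 200 of 17781 genes, all of at least 5 FPKM in the DMSO library, were raised 4-fold. Of them 100% passed the threshold for the baicalin comparison in either label, which a rise of that size makes nearly certain. Among unchanged genes 27 (basal) and 35 (luminal) passed. The simulation holds no spread between cultures, so it gives no error rate for these libraries. The tools were Python 3.11.15 with scipy 1.17.1, pandas 2.3.3, matplotlib 3.10.9 and numpy 2.4.6.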

Additional observations from a re-analysis of the deposited data

Results flagged for a closer look

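For 4 of the 9 genes the libraries of one label lay lower with baicalin and those of the other label higher. The baicalin ratio in the libraries labelled luminal over that in the libraries labelled basal was 3.36 for Cldn1, 1.64 for Cgn, 1.21 for Ocln and 1.12 for Tjp1. With 1 library per condition the difference was not tested. For Cgn both ratios had counting intervals away from 1, at 0.737 and 1.21. The ratio under the basal label for Cldn1 (0.991) and Ocln (0.959), and that under the luminal label for Tjp1 (1.04), had counting intervals that reached 1. Opposite directions therefore did not stand clear of counting error for these 3 genes, and spread between cultures is not covered. Their ratio of ratios had intervals above 1, from 3.09 for Cldn1, 1.08 for Ocln and 1.06 for Tjp1.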

How the results depend on the processing

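The number of the 9 genes past the threshold was the same under every alternative but the threshold of 0.5. The filter and protein-coding alternatives leave the values of these genes as they are, so there the number could not differ. At 0.5 it was 1 in place of 0 for baicalin in the libraries labelled basal (Cldn4), 4 in place of 3 for baicalin in those labelled luminal, 8 in place of 7 for the labels with DMSO and 7 in place of 5 for the labels with baicalin. No member changed sign in 144 values, but those with another pseudocount could not, since a pseudocount leaves the sign as it is. The luminal minus basal difference of the log2(FPKM + 1) baicalin changes moved by no more than counting error in 27 of 27 values. Of the 144 log2 differences, 25 moved beyond their counting error, without a change of direction. Counts over all genes kept moved more. In the order basal baicalin comparison, luminal baicalin comparison, labels with DMSO and labels with baicalin, they were 975, 703, 1523 and 1463 genes past 1. With a pseudocount of 0.1 they were 2425, 1965, 3494 and 3357, and with no pseudocount 3747, 3096, 4798 and 4635. On the TPM scale, whose values are larger against a pseudocount of 1, they were 1698, 1296, 2585 and 2522. At a threshold of 0.5 they were 3424, 2899, 4717 and 4409. Without a pseudocount, TPM scaling shifts every log2 ratio of the labels with DMSO by -0.11. With the pseudocount of 1 the shift differs by gene. Cldn8 went from 1.12 to 1.29, while the other members went lower, such as Cldn1 from -2.21 to -2.40.

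No paired analysis was possible because each condition has 1 library, and leaving out a library leaves no comparison. The Cldn8 values rest on 57 to 217 fragments and have the widest counting intervals. Spread between animals or cultures cannot be measured here.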
